A study of Homo sapiens with 14 samples.

Results

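The KLF4 intervals of untreated Nrf2 KO BEAS-2B cells were set against those of untreated WT cells, which asks how KLF4 occupancy differs when Nrf2 is missing and no arsenic is given. BEAS-2B is a cell line established from human bronchial epithelium. The Nrf2 KO cells came from the same line by CRISPR-Cas9 with guides to exon 2 of NFE2L2, the gene for Nrf2, and the knockout was judged by the absence of Nrf2 protein in the colonies. The labels and methods do not say whether the KO cells are 1 clone or several. Neither library of this comparison was exposed to As3+, and there is 1 KLF4 ChIP-seq library per side, so the genotype cannot be told apart from anything else that differed between the 2 libraries and no p-value is given. On chromosomes 1 to 22 and X the Nrf2 KO control list held 76521 intervals, and both lists together held 77272 of the 107624 in the 4 KLF4 lists of the series. The other lists, WT As3+ and Nrf2 KO As3+, come from cells given 1 µM As3+ for 6 h and are used for reference only. A WT control interval is called kept where at least 1 bp was shared with a Nrf2 KO control interval and lost otherwise, and a Nrf2 KO control interval with no WT control interval on it is called new. These words describe the lists, since a site under a list's threshold is not in it. By this rule 392 WT control intervals were kept, 359 were lost and 76128 Nrf2 KO control intervals were new. Stronger means a higher −log10 p at the summit throughout. A peak list shows neither RNA nor the edited exon, so the knockout could not be checked here, and the cell type only through promoters, as given with the gene lists.

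KLF4 is a zinc finger transcription factor that binds CACCC-like and GC-rich DNA at promoters and enhancers. It is known for its part in epithelial differentiation and for being one of the factors used to reprogram cells to pluripotency. Nrf2 is the transcription factor that switches on antioxidant genes when its inhibitor KEAP1 is disabled, and it binds the antioxidant response element together with a small MAF protein. In ChIP-seq, DNA bound by a protein is pulled down with an antibody and sequenced, and a peak caller lists the intervals where fragments pile up over a local background.

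The reference sequence (GRCh38/hg38, plus strand) of 100 bp around the summit shows what the classes look like as DNA. For each class the strongest summits are printed first, followed by the strongest ones that hold a KLF word. Capitals mark the KLF word (CCACACCC or CCACGCCC), the AP-1 word TGACTCA, the TEAD word ACATTCC, the RUNX word TGTGGTT, the GC box CCCCGCCCC and the CG run CGCGCG, each on either strand. The first 3 lost sites lie in intron 3 of EHD4, in intron 8 of PTCSC2 and within SSUH2 outside its canonical transcript. The next 4 were chosen for the KLF word and lie in intron 9 of DNER, between genes near TEX101, in intron 3 of the lncRNA ENSG00000234810, and in ADAMTSL1 upstream of its canonical transcript.
Lost 1, chr15:41930457-41930556: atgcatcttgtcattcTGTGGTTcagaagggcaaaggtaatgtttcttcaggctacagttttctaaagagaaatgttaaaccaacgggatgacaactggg
Lost 2, chr9:97714563-97714662: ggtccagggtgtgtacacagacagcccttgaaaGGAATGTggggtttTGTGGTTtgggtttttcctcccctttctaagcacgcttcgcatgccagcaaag
Lost 3, chr3:8712712-8712811: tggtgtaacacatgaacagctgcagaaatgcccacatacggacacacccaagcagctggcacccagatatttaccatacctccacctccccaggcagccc
Lost 4, chr2:229408550-229408649: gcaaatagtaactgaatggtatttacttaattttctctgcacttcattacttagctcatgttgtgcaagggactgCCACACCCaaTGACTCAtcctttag
Lost 5, chr19:43438591-43438690: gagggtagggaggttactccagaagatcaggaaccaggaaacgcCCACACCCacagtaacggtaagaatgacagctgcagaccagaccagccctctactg
Lost 6, chr1:55727085-55727184: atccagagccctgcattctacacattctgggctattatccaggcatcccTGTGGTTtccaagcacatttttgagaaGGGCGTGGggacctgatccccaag
Lost 7, chr9:18460103-18460202: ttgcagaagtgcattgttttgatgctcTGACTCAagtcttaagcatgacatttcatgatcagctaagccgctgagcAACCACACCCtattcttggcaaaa

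The kept sites shown lie in intron 12 of TRIOBP, between genes on chromosome 5, between genes near LINC00592, in intron 2 of LAMA5 and in exon 2 of MYCN. The last 3 of them were chosen for the KLF word.
Kept 1, chr22:37752692-37752791: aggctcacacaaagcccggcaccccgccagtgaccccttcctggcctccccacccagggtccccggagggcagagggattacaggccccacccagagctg
Kept 2, chr5:37272764-37272863: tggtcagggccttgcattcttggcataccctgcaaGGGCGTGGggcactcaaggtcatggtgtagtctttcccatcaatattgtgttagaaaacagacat
Kept 3, chr12:52147464-52147563: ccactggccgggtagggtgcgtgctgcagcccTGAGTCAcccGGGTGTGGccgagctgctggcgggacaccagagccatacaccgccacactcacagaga
Kept 4, chr20:62359499-62359598: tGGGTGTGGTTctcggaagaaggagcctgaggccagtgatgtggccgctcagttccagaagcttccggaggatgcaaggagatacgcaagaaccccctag
Kept 5, chr2:15942211-15942310: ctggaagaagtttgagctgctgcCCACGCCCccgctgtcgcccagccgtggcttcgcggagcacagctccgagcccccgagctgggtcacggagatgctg

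The new sites shown lie between genes on chromosome 2, upstream of RAB6A, upstream of PRUNE2, upstream of XPO6 and in intron 1 of GAP43, the last 2 chosen for the KLF word.
New 1, chr2:16508112-16508211: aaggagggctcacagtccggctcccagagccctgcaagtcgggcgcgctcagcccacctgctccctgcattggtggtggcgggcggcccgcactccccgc
New 2, chr11:73761421-73761520: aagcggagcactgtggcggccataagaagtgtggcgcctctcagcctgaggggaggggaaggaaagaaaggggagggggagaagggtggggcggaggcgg
New 3, chr9:76906240-76906339: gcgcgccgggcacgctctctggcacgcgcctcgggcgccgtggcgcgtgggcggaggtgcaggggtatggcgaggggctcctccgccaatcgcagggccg
New 4, chr16:28212045-28212144: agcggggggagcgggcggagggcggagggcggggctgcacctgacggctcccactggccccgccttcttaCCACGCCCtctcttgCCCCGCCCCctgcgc
New 5, chr3:115658558-115658657: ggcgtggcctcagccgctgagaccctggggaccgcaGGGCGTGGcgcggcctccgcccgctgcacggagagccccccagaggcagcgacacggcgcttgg
Over these 17 sequences the G+C content ran from 39% to 55% in the lost, from 49% to 70% in the kept and from 66% to 79% in the new ones.

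The Nrf2 KO control list was 101.9 times as long as the WT control list, with weaker intervals on average. The median summit carried 25 fragments in the WT control list, where the lowest had 10, and 7 in the Nrf2 KO control list, where the lowest had 4. The numbers of fragments and of background fragments at a summit were worked out from the deposited fold and p. The lowest background of a list was 1.90 fragments in the WT control and 0.491 in the Nrf2 KO control, a ratio of 0.258. The ratio of the backgrounds at kept sites had the same median, 0.258. The longer list therefore came from the library with the lower background, and its threshold let through summits with fewer fragments. Median widths were close, at 275 bp and 267 bp.

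Of the WT control intervals, 52.2% were kept, with an exact 95% Clopper-Pearson interval of 48.6% to 55.8% that covers counting error alone, as do all intervals of shares given here. In the Nrf2 KO control list 99.5% of intervals were new. The kept share was built up slowly along the Nrf2 KO control list, since its strongest 100 intervals met 45 WT control intervals, its strongest 3000 met 171 and its strongest 25000 met 315. When the Nrf2 KO control list was shortened to the strongest intervals, as many as the WT control list has, it met 90 WT control intervals, which is 12% (9.75% to 14.5%). As many of the strongest WT As3+ intervals met 271, or 36.1% (32.6% to 39.6%), so at this length the other WT library shared more of the WT control intervals than the Nrf2 KO library did, with intervals that do not overlap. The Nrf2 KO control list ended at this length with an interval of 21 fragments and −log10 p of 16.96, and the next one, just outside, had 14 fragments over a lower background and −log10 p of 16.95.

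**Figure D1:**
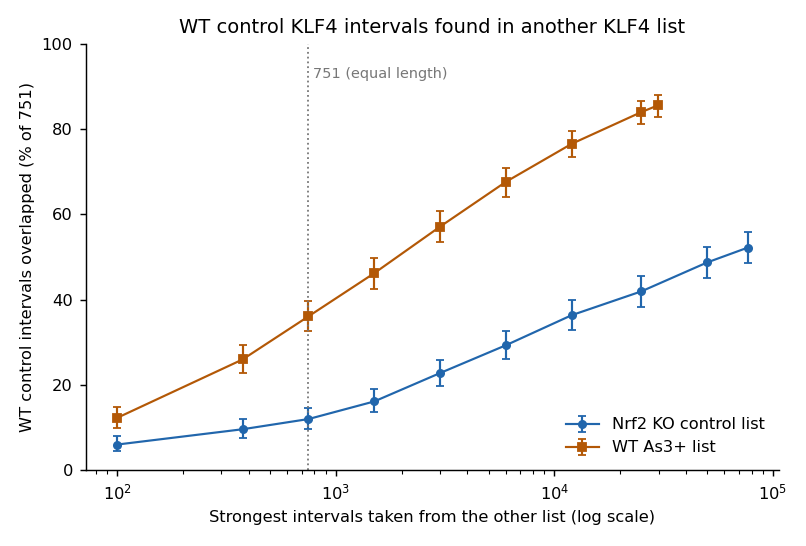
Share of the WT control KLF4 intervals (%, vertical axis) that share at least 1 bp with the strongest intervals of the Nrf2 KO control or the WT As3+ list, against the number of intervals taken (log scale). Bars are exact 95% Clopper-Pearson intervals for counting error. The WT As3+ curve lies above the Nrf2 KO control curve at every length drawn, and at the length of the WT control list the shares are 36.1% and 12%.

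Against the full Nrf2 KO control list, strength in the WT control list hardly separated kept from lost intervals, whereas place and base composition did. In 5 equal parts of the WT control list, from the strongest to the weakest, 56.7%, 50.7%, 52.3%, 51.3% and 50% of intervals were kept. Median fragments at the summit were 26 in kept and 25 in lost intervals. At equal length strength did separate them, since the same 5 parts held 35, 18, 12, 13 and 12 kept intervals. Median fragments were then 29.5 in kept and 25 in lost intervals. The shares that follow are again against the full list. Of the 220 WT control summits within 2 kb of a transcription start site (TSS), 75.5% were kept (69.2% to 81.0%), against 42.6% (38.3% to 46.9%) of the 531 elsewhere. For scale, 67.7% of all 19970 protein-coding genes had a Nrf2 KO control summit within 2 kb of the TSS, a looser measure than a shared base. The kept share was 43.6% in introns, 38.2% between genes and 60.7% (40.6% to 78.5%) of the 28 summits in exons. Seen from the classes, 42.3% of kept and 15.0% of lost summits lay within 2 kb of a TSS (4.74% of lost summits with protein-coding TSS only), and the median distance to the nearest TSS was 4028 bp for kept and 15752 bp for lost summits.

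The share kept rose from 13.0% (8.34% to 19%) of the 169 WT control summits whose 200-bp window had a G+C content of 40% to 50%, through 38.4% (32.3% to 44.9%) of 242 at 50% to 60% and 84.5% (79.1% to 89.1%) of 220 at 60% to 70%, to 98.8% (93.7% to 100%) of 86 at 70% or more. Below 40%, 6 of 34 were kept. The same order from 40% upward was seen among summits with 30 or more WT control fragments, with 20%, 40.7%, 89.3% and 100% kept, and among summits away from a TSS, with 12.7%, 34.6%, 78.9% and 100% kept. Over all protein-coding TSS, whether or not in the WT control list, the Nrf2 KO control list also followed G+C. It had a summit within 2 kb of 12.5%, 41.6%, 75.9% and 91.1% of them in these bands. The median G+C content was 64.5% in kept, 50% in lost and 61.5% in new windows, and 71.5% in the strongest Nrf2 KO control windows at equal length. The WT As3+ list, from cells with Nrf2, followed G+C in the same direction with higher shares, since it held 67.5% of the WT control summits at 40% to 50% and 97.3% at 60% to 70%. Whether base composition set which intervals were kept, through the library or through the sites, was not tested and cannot be told apart from the genotype with 1 library per side.

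**Figure D2:**
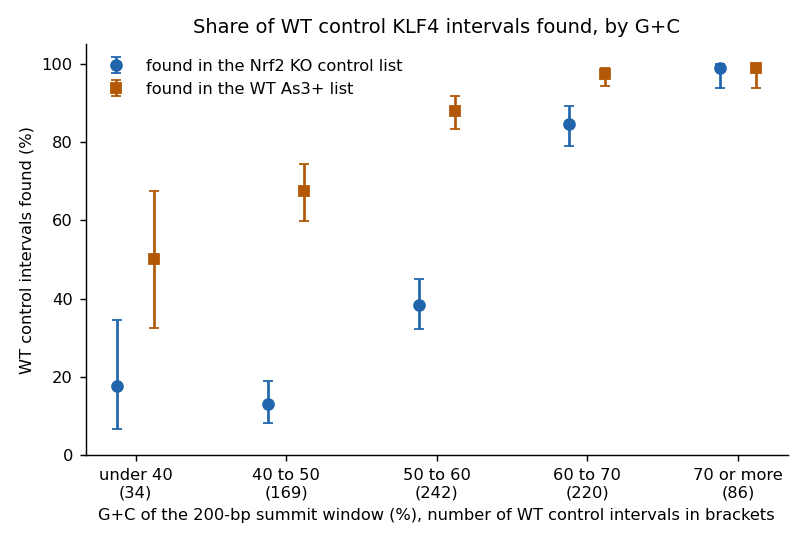
Share of WT control KLF4 intervals (%, vertical axis) found in the Nrf2 KO control list (circles) and in the WT As3+ list (squares), by the G+C content of the 200-bp window at the summit, with the number of WT control intervals in brackets. Bars are exact 95% Clopper-Pearson intervals. Both shares rise with G+C from 40% upward, and they meet at 98.8% where G+C is 70% or more.

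At most kept sites the Nrf2 KO control summit carried fewer fragments than the WT control summit. The median was 26 fragments in the WT control and 15 in the Nrf2 KO control over 392 sites, and the median of the ratio was 0.580 (95% interval of the median over sites 0.548 to 0.619). The background ratio was 0.258, and 380 of 392 sites lay above their WT control fragments multiplied by it. Since a kept site had to pass the threshold of the Nrf2 KO control list and the 359 lost sites have no value in it, the choice of sites favours high ratios, and nothing is read from this excess. The ratio was 0.667 at the 166 kept sites near a TSS and 0.50 at the 226 elsewhere. Across sites it also followed G+C from 40% upward, with medians of 0.328, 0.457, 0.561 and 0.750 in the bands named above, but the 6 kept sites below 40% had the highest median, 0.779. The WT As3+ library showed the same order against the WT control, with ratios of 0.590, 0.731, 1.15 and 1.33, and 0.694 below 40%. The log2 fragment numbers of the kept sites had a Pearson correlation of 0.534 and a Spearman correlation of 0.378 over 392 sites, which share 2 libraries and are not independent.

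CALCOCO1, a co-activator and autophagy receptor, had the strongest WT control interval (chromosome 12, 53727455 to 53727809), with 85 fragments at the summit in the WT control and 39 in the Nrf2 KO control. The interval upstream of S100A14, a calcium-binding protein of epithelia, had 67 and 52 fragments. The strongest kept site without a TSS nearby, in intron 12 of TRIOBP and printed above as kept 1, had 83 and 28 fragments. The intergenic site on chromosome 5, kept 2, had 71 fragments in the WT control and 11 in the Nrf2 KO control, where it stood at rank 15219. It gave the lowest ratio of all kept sites, 0.155. Another strong intergenic site, on X (154596329 to 154596927), had 76 and 14 fragments. The highest fragment numbers of both lists, 185 and 174 in the WT control and 148 and 155 in the Nrf2 KO control, were at kept sites on chromosome 16 (46389570 to 46390105 and 46387761 to 46388083), where the background was also high, at 92.9 and 96.3 fragments in the WT control. The other sites named here all had fewer fragments in the Nrf2 KO control, by amounts that differed several times.

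Only 30 of the 392 kept sites had more fragments in the Nrf2 KO control than in the WT control, and 9 of them lay in 2 short stretches. On chromosome 2 between 15 and 17 Mb they were at NBAS, DDX1, MYCN, its antisense gene MYCNOS and CYRIA, and on chromosome 7 near 55 Mb at SEC61G and EGFR, the epidermal growth factor receptor. NBAS had 52 fragments in the WT control and 93 in the Nrf2 KO control, the strongest interval of that list. DDX1, an RNA helicase, had 56 and 88 fragments. EGFR had 22 and 41 fragments, and SEC61G, a subunit of the protein translocation channel, 21 and 44. At MYCN 3 WT control intervals with 23, 32 and 38 fragments fell on the same Nrf2 KO control interval with 70 fragments, so they are not separate sites in the KO list. The ratio at these 9 sites ran from 1.48 to 3.04, and it was 0.565 over the other 383 kept sites. High fragment numbers there were not particular to the Nrf2 KO control. The highest summits of the chromosome 2 and 7 stretches had 106 and 44 fragments in the WT As3+ list, and 71 and 25 in the Nrf2 KO As3+ list. The WT control list had 4 intervals per Mb in each stretch, against 0.248 over the whole list. These stretches were noticed after the values were seen, and their copy number was not tested. Outside them, an intron on chromosome 8 (143951662 to 143952027) had 24 fragments in the WT control and 45 in the Nrf2 KO control. The promoter of KMT2A, a methyltransferase of histone H3 lysine 4, had 18 and 30 fragments.

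**Figure D3:**
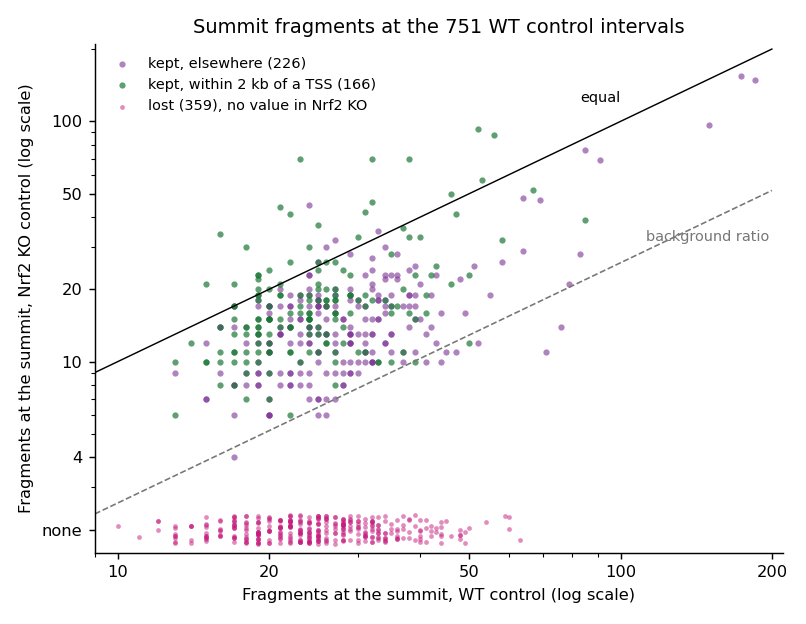
Fragments at the summit in the Nrf2 KO control (vertical axis, log scale) against the WT control (horizontal axis, log scale) for the WT control intervals. Green points are kept sites within 2 kb of a TSS, purple points are kept sites elsewhere, and the pink strip holds the 359 lost sites, which have no value in the Nrf2 KO control list. The solid line marks equal numbers and the dashed line the background ratio of 0.258. Most kept sites lie between the lines, and 30 lie above the solid one.

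The lost intervals were mostly far from promoters. Of 359, 49% had the summit in an intron, 32.9% between genes and 3.06% in an exon, and 60.4% lay over 10 kb from any TSS. The strongest was in intron 3 of EHD4, an endocytic trafficking gene (chromosome 15, 41930297 to 41930695), with 60 fragments over a background of 4.07. A Nrf2 KO control interval lay 708 bp from it without overlap. An intron of the lncRNA PTCSC2 on chromosome 9 (97714453 to 97714770) had 59 fragments. The site in SSUH2 on chromosome 3 (8712515 to 8712954) had 63 fragments, the highest number among the lost, and lay 21040 bp upstream of CAV3, a caveolin of muscle. A site 11060 bp upstream of FBLN2, an extracellular matrix protein, also on chromosome 3 (13537873 to 13538196), had 60 fragments. The next 6 of the 10 strongest lost sites away from a TSS had 40 to 54 fragments and lay on chromosome 10 (49568363 to 49568661), chromosome 19 (43438423 to 43438788 and 40831879 to 40832437), chromosome 1 (55726994 to 55727281), chromosome 9 (18459992 to 18460321) and chromosome 5 (61314063 to 61314357). All 10 were also in the WT As3+ list. Among the 15 strongest lost intervals, those near a TSS were at the lncRNA ENSG00000287791 in an intron of DNER, with 48 fragments, and at IGFL2-AS1, with 44.

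The WT As3+ list held 259 of the 359 lost sites, or 72.1% (67.2% to 76.7%), and 384 of the 392 kept sites, or 98.0%. At those sites the median ratio of WT As3+ to WT control fragments was 0.651 for lost and 1.11 for kept sites, so the sites lost from the Nrf2 KO control list were also the ones with relatively fewer fragments in the other WT library. The Nrf2 KO As3+ list, with 130 intervals, held 11 lost and 46 kept sites. Among the lost sites in it were those at EHD4 and near FBLN2.

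Depth was seen through the background only, and its part in the lost sites was not tested. If fragments and background at the 359 lost sites were both multiplied by 0.258, the median would be 6.45 fragments, and 234 sites (65.2%) would still reach the lowest −log10 p listed for the Nrf2 KO control, 2.87. At a stricter mark, the 5th percentile of that list (3.89), 115 would. The kept sites under the same multiplication would pass the lowest mark at 263 of 392 (67.1%), so the multiplication did not separate kept from lost sites. The nearest Nrf2 KO control interval lay at a median gap of 11511 bp from a lost one, within 1 kb for 57 and beyond 10 kb for 187.

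Most new intervals were weak, and their place changed with strength. Of all Nrf2 KO control intervals 14.9% had 4 or 5 fragments at the summit, of which 18.0% lay within 2 kb of a TSS and 4.05% were also in the WT As3+ list. At 9 or 10 fragments these shares were 49.6% and 33.3%, and at 16 to 20 fragments 80.6% and 86.2%. Above 20 fragments the share near a TSS was lower again, at 69.5%, and the share in the WT As3+ list was 92.3%. Over all new intervals, 35.6% of summits lay within 2 kb of a TSS and 34.8% in introns, and 21.3% were in the WT As3+ list. Among the 664 new intervals of the strongest ones at equal length, 78.6% were near a TSS and 89.3% were in the WT As3+ list. The intervals at the top of the Nrf2 KO control list were thus largely promoter intervals that As3+-treated WT cells had too, and the bulk of weak ones were not.

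The strongest new promoter interval was at EEF1D, a translation elongation factor subunit (chromosome 8, 143596985 to 143597856), with 38 fragments in the Nrf2 KO control and no interval in the WT control. At NBPF1 there were 64 fragments, but over a background of 6.24 and in a gene family with near-identical copies, so its value is uncertain. CRK, a signalling adaptor, had 34 fragments, TRIB1, a pseudokinase, 30, and PRUNE2 29. NRBP1 had 26 fragments, XPO6, a nuclear exporter of actin, 30, and MAP1LC3B, the autophagosome protein LC3B, 22. In the WT As3+ list these genes had 24 to 36 fragments, except for NBPF1 with 70. Away from any TSS, the strongest new interval lay on chromosome 2 (16507896 to 16508696) in the stretch with MYCN, with 33 fragments. The next 9 lay on chromosome 16 (1025174 to 1025779), in intron 1 of OPRL1 on chromosome 20 (64088495 to 64089053), in FBXO16 on chromosome 8 (28411670 to 28412629), on chromosome 15 (54925882 to 54926233), in EGLN3 on chromosome 14 (34060105 to 34060775), on chromosome 10 (133787005 to 133787525), on X (156030445 to 156030806), on chromosome 22 (45902941 to 45903963) and in intron 30 of RTEL1 on chromosome 20 (63693323 to 63693768), with 21 to 47 fragments.

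RAB6A, FAM168A and LIPT2 stood out among the strongest new promoters for lying within 2 Mb of each other on chromosome 11, which was noticed after their values were seen. RAB6A, a GTPase of the Golgi, had 37 fragments in the Nrf2 KO control, against 13 in the WT As3+ list. FAM168A had 28 and 9 fragments. LIPT2, which transfers octanoyl groups in lipoate synthesis, had 32 fragments and no WT As3+ interval. From 73 to 74 Mb the Nrf2 KO control list had 102 intervals, all new, the WT As3+ list 11 and the WT control list 0, where the Nrf2 KO control list as a whole was 2.56 times as long as the WT As3+ list. The WT control list as a whole had 0.248 intervals per Mb. By number of Nrf2 KO control intervals this bin stood at place 154 of 2755. At its 5 intervals shared with the WT As3+ list, the median ratio of Nrf2 KO control to WT As3+ fragments was 1.64. This was the highest of 1037 bins of 1 Mb with at least 5 shared intervals, whose median was 0.800. With 5 intervals this median is a rough one. By chromosome this ratio ran from 0.714 on chromosome 2 to 0.900 on chromosome 10 and 0.923 on chromosome 20, and the ratio of list lengths was likewise lowest on chromosome 2 (1.69) and highest on chromosomes 10 (3.96) and 20 (4.04). Copy number was not measured in these files, and its part was not tested.

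In windows of 200 bp, KLF words were about equally common at kept and lost summits and less so at new ones. The words CCACACCC or CCACGCCC, on either strand, were found in 25.0% of kept windows of 200 bp (20.8% to 29.6%), in 28.1% of lost (23.5% to 33.1%) and in 9.21% of new windows (9.01% to 9.42%). All 14555311 tiles of 200 bp in the genome without an unknown base held them in 2.71%. In windows of 100 bp the words were in 13.0% of kept and 19.5% of lost windows, so the closeness depends on the window. At 200 bp the intervals for kept and lost overlap, and their difference was not tested. New windows held the words less often than either, and the strongest Nrf2 KO control windows at equal length did so in 11.5%. The AP-1 word, TGACTCA, for the dimers of FOS and JUN proteins, was in 17.6% of kept and 18.9% of lost windows, but in 2.49% of new windows, where the genome had 2.99%. The TEAD word, ACATTCC, was in 8.93%, 12.3% and 1.6%, with 3.23% in the genome. The lost sites printed above from DNER and ADAMTSL1 each hold a KLF word and an AP-1 word.

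RUNX words, TGTGGTT, were more frequent in lost windows, at 18.4% (14.5% to 22.8%), than in kept windows, at 7.40% (5.01% to 10.5%), and were in 2% of new windows and 3.78% of the genome. A RUNX word can share bases with the KLF word CCACACCC, as in lost 7 and kept 4. Without such joined words the shares were 15.6% in lost and 6.38% in kept windows. The words of GC-rich promoters ran the other way. CGCGCG was in 0.557% of lost, 6.63% of kept and 6.73% of new windows, with 0.227% in the genome, and in 20.4% of the strongest Nrf2 KO control windows at equal length and 19.9% of windows centred on a protein-coding TSS. The wider KLF words, CCCCACCC or CCCCGCCC, of which the second is part of the GC box CCCCGCCCC, were in 14.2% of lost, 34.4% of kept and 16.3% of new windows, with 2.37% in the genome. The GC box was in 1.11% of lost, 7.14% of kept and 4.59% of new windows, with 0.284% in the genome. A word match describes the letters of the window and is no evidence of binding.

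Base composition moved with these words, so they were also counted within bands of G+C. At 50% to 60%, KLF words were in 32.3% of 93 kept windows, 30.2% of 149 lost and 13.0% of 24213 new windows, with 9.63% of genomic tiles. At 60% to 70% they were in 22%, 20.6% and 7.31%, with 6.54% of tiles. The AP-1 word at 60% to 70% was in 26.3% of kept, 26.5% of lost and 2.72% of new windows, with 2.37% of tiles. New windows were thus near the genomic share of their G+C band for AP-1, and kept and lost windows were above it. RUNX words at 50% to 60% were in 12.9% of kept (6.85% to 21.5%) and 16.1% of lost windows (10.6% to 23%). Within this band the 2 intervals overlap, and the difference was not tested.

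**Figure D4:**
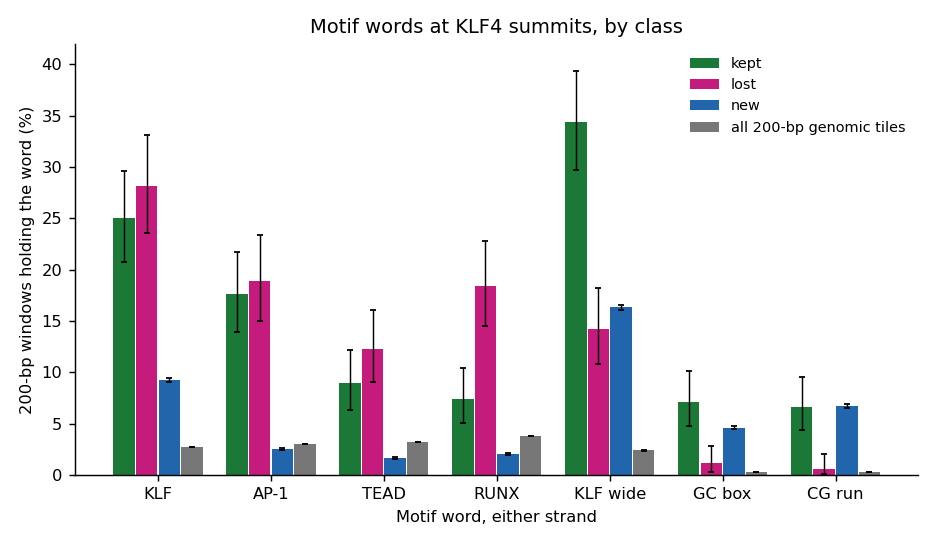
Share of 200-bp windows (%, vertical axis) that hold a motif word on either strand, for kept, lost and new KLF4 summits and for all 200-bp tiles of the genome. Bars carry exact 95% Clopper-Pearson intervals for counting error, and windows of all G+C contents are pooled. KLF, AP-1 and TEAD words are higher in kept and lost than in new windows, RUNX words are highest in lost windows at 18.4%, and the wide KLF words, GC boxes and CG runs are lowest in lost windows among the 3 classes, although for the wide words the intervals of lost and new windows overlap.

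By genes, the difference between the full lists was nearly all on 1 side, but not at equal length. Of 19970 protein-coding genes, 159 had a WT control summit within 2 kb of the TSS (0.796%) and 13527 a Nrf2 KO control summit (67.7%). With the strongest Nrf2 KO control intervals at equal length it was 566 genes (2.83%). With the full lists, both marked 157 genes, the Nrf2 KO control alone marked 13370, and the WT control alone marked 2, NOD1 and SLC14A2. With the strongest Nrf2 KO control intervals at equal length, both marked 42 genes, the Nrf2 KO control alone 524 and the WT control alone 117. With a −log10 q of at least 5 in both lists, both marked 59 genes, the Nrf2 KO control alone 7649 and the WT control alone 16. NOD1, a sensor of bacterial peptidoglycan, had 19 fragments in exon 1 in the WT control and 19 in the WT As3+ list. SLC14A2, a urea transporter, had 23 fragments at 1956 bp from its TSS, and 16 in the WT As3+ list. Over all 62062 annotated genes 34 were marked by the WT control alone, of which 20 were lncRNA genes. Of the 54 lost summits near a TSS, 21 had another Nrf2 KO control summit at the same gene.

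At the 157 genes in both lists the same interval was kept in 127. Median fragments were 24 in the WT control and 16 in the Nrf2 KO control, and 21 genes had more in the latter. SEMA3B, a secreted semaphorin, had 58 and 32 fragments. SLC7A5, an amino acid transporter, had 50 and 12, one of the lowest ratios. LEMD2, a nuclear envelope protein, had 53 and 57, and HM13, an intramembrane protease, 46 and 50, so at these genes the raw numbers were close. Their backgrounds were not, at 4.84 in the WT control and 1.87 in the Nrf2 KO control for LEMD2, and 8.23 and 2.12 for HM13. S100A2 and TAGLN2 had 40 and 38 fragments in the WT control, and both had 33 in the Nrf2 KO control.

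The 13370 genes marked in the Nrf2 KO control alone had a median of 11 fragments, and 9645 of them (72.1%) also had a summit in the WT As3+ list, which marked 10526 of all 19970 genes. Promoter composition again moved with the call. Of 13575 genes whose TSS window was CpG-rich (G+C of at least 50% and an observed to expected CpG ratio of at least 0.6), 84.4% had a Nrf2 KO control summit, against 32.3% of the other 6395. The WT As3+ list marked 69.3% and 17.5% of the same groups.

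The gene lists are read against the 67.7% of all protein-coding genes that had a Nrf2 KO control summit and the 0.796% that had a WT control summit. At that WT control share a short list holds few or no marked genes, so nothing is read from none in the WT control. CpG-rich promoters are given for some lists, to be read beside the 84.4% of all genes with a CpG-rich TSS that were marked in the Nrf2 KO control. All 18 genes of the Nrf2 pathway regulators were marked in the Nrf2 KO control (lower bound 81.5%) and none in the WT control, and 16 of the 18 had a CpG-rich TSS. The WT As3+ list, from cells with Nrf2, also marked 16 of the 18. NFE2L2 itself had a summit with 15 fragments in the Nrf2 KO control, against 17 in the WT As3+ list. RBX1, a subunit of the ligase that degrades Nrf2, had 17, MAFF, a small MAF partner, 14, and SQSTM1, which sequesters KEAP1, 16. Of the antioxidant genes that Nrf2 is known to activate, 26 of 34 were marked (76.5%, 58.8% to 89.3%), and 24 in the WT As3+ list. PRDX1, a peroxiredoxin, had 31 fragments in the WT control and 11 in the Nrf2 KO control, and TXN, thioredoxin, had 19 and 15. GSTM3, a glutathione transferase, had 18 in the Nrf2 KO control and ABCC3, an efflux transporter, 16. SLC7A11, AKR1B10, AKR1C1, AKR1C2, AKR1C3, ABCC2, MGST1 and GPX2 had no summit within 2 kb in either list.

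Of the KLF and SP family 23 of 26 genes were marked in the Nrf2 KO control (88.5%, 69.8% to 97.6%), 0 in the WT control and 21 in the WT As3+ list. A CpG-rich TSS was present at 20 of the 26, of which 18 were marked in the Nrf2 KO control. KLF13 had 20 fragments, KLF10 17, SP5 16 and KLF12 15. KLF4 itself had 9 fragments, at 1749 bp from its TSS, and 17 in the WT As3+ list. KLF9, KLF14 and KLF17 had none. Of the AP-1 factors 13 of 14 were marked, with FOSL2 at 19 fragments in the WT control and 20 in the Nrf2 KO control, and FOS, FOSL1 and JUN at 16, 16 and 15 in the Nrf2 KO control but not in the WT control. The WT As3+ list marked 12 of the 14. A CpG-rich TSS was present at 11 of the 14, all marked in the Nrf2 KO control. Of the chromatin enzymes of enhancers and promoters 34 of 37 were marked (91.9%, 78.1% to 98.3%), and 32 in the WT As3+ list. KMT2A was in both lists, and EZH2, KMT2D and KAT2B had 21, 23 and 17 fragments in the Nrf2 KO control. CpG-rich promoters made up 34 of these 37 genes, against 68.0% of all protein-coding genes.

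Stemness and pluripotency genes were marked at 13 of 20 (65.0%, 40.8% to 84.6%). MYC had 19 fragments in the WT control and 23 in the Nrf2 KO control, ALDH1A3 12, SOX2 11 and BMI1 12, while NANOG, LIN28B, ZFP42 and 4 others had none. Of the keratin and junction genes of epithelia 32 of 40 were marked (80.0%), with CDH3, KRT80, KRT18 and ITGB4 at 17, 17, 16 and 16 fragments, and KRT14, KRT19 and TP63 among those with none. Of the mesenchymal genes 15 of 20 were marked. VIM, vimentin, had 29 fragments in the WT control and 17 in the Nrf2 KO control, and TGFB1, CDH2 and TGFBR2 had 13, 12 and 14. Of the metallothioneins, which bind metals, 9 of 11 were marked, with MT2A at 17, MT1F at 14, MT3 at 11 and MT1M at 9 fragments. Ribosomal protein genes were marked at 56 of 79 (70.9%), although 75 of the 79 had a CpG-rich TSS, with RPL13 at 22 fragments in the WT control and 14 in the Nrf2 KO control and RPL8 at 22, RPL26 at 19 and RPL5 at 17. The WT As3+ list marked 8 of the stemness, 23 of the keratin and junction, 14 of the mesenchymal, 5 of the metallothionein and 44 of the ribosomal protein genes.

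The cell type could be checked only through promoter intervals. Among 11 markers of epithelial cells 8 had a Nrf2 KO control summit, among 6 mesenchymal markers 5, among 4 blood markers 1 and among 3 endothelial markers 3, and in the WT control VIM alone of these was marked. In the wider list of blood and endothelial genes, of which 4 of 17 had a CpG-rich TSS, 8 were marked (47.1%, 23% to 72.2%), among them VWF with 8 fragments, HBA1 with 7 and KDR with 7. Of 416 olfactory receptor genes 5 were marked (1.2%). A promoter interval did not separate epithelial cells from others in these lists.

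**Figure D5:**
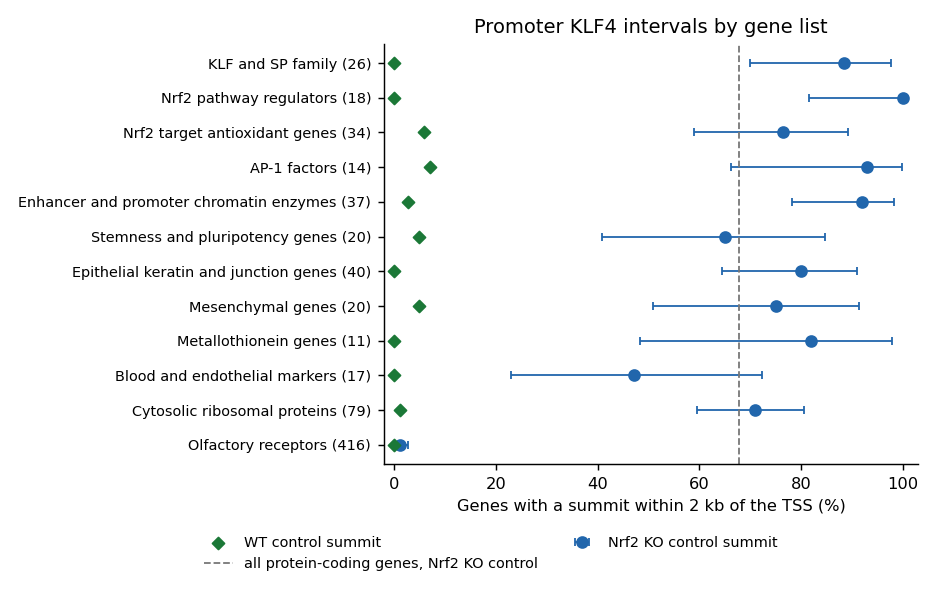
Share of the genes of each list (number of genes in brackets) with a summit within 2 kb of the TSS (%, horizontal axis) in the Nrf2 KO control list (circles, with exact 95% Clopper-Pearson intervals) and in the WT control list (diamonds). The dashed line is the 67.7% of all protein-coding genes with a Nrf2 KO control summit. Regulators of the Nrf2 pathway reach 100%, and olfactory receptors lie at 1.2%.

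Along the chromosomes, new intervals were densest on chromosome 19, with 80.4 per Mb, and sparsest on X, with 7.34 per Mb. Over 23 chromosomes their density followed that of protein-coding genes, with a Pearson correlation of 0.837 and a Spearman correlation of 0.722, given as a description. Kept shares ran from 20% of 10 WT control intervals on chromosome 18 and 21.7% of 23 on chromosome 4 to 78.9% of 19 on chromosome 20. Numbers of WT control intervals on a chromosome were between 10 and 89, so single chromosomes give rough shares.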

How the data were processed

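KLF4 ChIP-seq libraries of WT and Nrf2 KO BEAS-2B cells without As3+ were compared, 1 library each. The authors aligned reads of 75 nt to GRCh38/hg38 with BWA (bcl2fastq 2.17 is named in the submitters' processing notes) and deposited 1 list of intervals per library. The peak caller and its control are not given in the sources used here, and an input library is labelled for WT control cells only. The deposited lists give, for each summit, the fold enrichment as a ratio to local background and the −log10 of p and of q. The deposited score was not used.

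Fragments (n) and background (λ) were recovered as the pair for which fold is (n + 1)/(λ + 1) and p is the Poisson tail above n. The largest misfit in −log10 p was 0.000287 in the Nrf2 KO control list. Read totals were not used here, so depth is known through λ only. The other 10 samples of the series were not analysed here. Overlap meant 1 bp. Genes and canonical TSS came from GENCODE 44. Words were searched in 200-bp windows on both strands. Printed windows skip chromosome 8 and annotated UTRs. Other contigs were left out.

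Named genes are protein-coding genes with a TSS within 2 kb of the 10 strongest kept, 15 strongest lost and 15 strongest new intervals, genes with a WT control summit only, list members with a WT control summit and the 4 strongest in the Nrf2 KO control, NFE2L2 and KLF4, and sites by coordinates for the 10 strongest lost and new without a TSS. Once their values were seen, SEMA3B, SLC7A5, LEMD2, HM13, S100A2, TAGLN2, sites with high ratios and list members without a summit were added. Some genes that the rule names are not reported here. The classes and lists were chosen with earlier results of these data known. Alternatives were stricter peaks, other overlaps, list lengths, TSS and motif windows. Intervals of shares are exact Clopper-Pearson intervals at 95%. Steps were tested on simulated data. The tools were samtools 1.23.1, matplotlib 3.10.9, pysam 0.24.0, pandas 2.3.3, scipy 1.17.1, numpy 2.4.6 and Python 3.11.15.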

Additional observations from a re-analysis of the deposited data

Results flagged for a closer look

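Outside the chromosomes compared, the Nrf2 KO control list held 223 of its 76768 intervals on unplaced or unlocalized contigs, where the WT control list held 9 of 760. As a share of its list this was lower in the Nrf2 KO control. The 223 intervals are given without reading a contrast from them. They were singled out because these contigs enter no comparison of the report. No input values are at hand to set beside them.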

How the results depend on the processing

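Of 46 alternative values for 12 results, 21 stayed within the main interval (for gene counts, within 1.5 times) and 25 moved. With a −log10 q of at least 5 in both lists, 39.3% of WT control intervals were kept, 98.96% of Nrf2 KO control intervals were new, 59.1% of new intervals lay within 2 kb of a TSS, and 7649 genes were marked by the Nrf2 KO control only, 16 by the WT control only and 59 by both. With an overlap of 50% of the shorter interval 47.8% were kept, and with summits at most 200 bp apart 41.4% were kept and 99.6% were new. At equal length, ranking by fold gave 9.72% kept and the 1500 strongest Nrf2 KO control intervals 16.1%. With a TSS window of 1 kb, 27.5% of new and 9.19% of lost summits were near a TSS, with 5 kb 48.7% and 25.1%, and with protein-coding TSS only 27.3% and 4.74%, each time lower for lost than for new summits. KLF words were in 13.0% of kept, 19.5% of lost and 4.97% of new windows of 100 bp, and in 34.4%, 33.7% and 16.1% of windows of 400 bp. In alternatives chosen after seeing the data, limited to WT control intervals that WT As3+ cells also had, 59.7% were kept and 33.2% of lost windows held a KLF word. The fragment ratio stayed between 0.565 and 0.593 under its 4 alternatives. No paired analysis was possible because each condition has 1 library.

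The lists differ in threshold and background, and no condition has a replicate, so genotype, depth, base composition of the library and preparation cannot be told apart. Intervals of shares cover counting error only. The interval of the median fragment ratio covers spread over sites of the same 2 libraries, which are not independent.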
